A study of Mus musculus with 4 samples.

Results

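The genes described are 3 ligands of bone morphogenetic protein (BMP) signalling, Bmp2, Bmp4 and Bmp7, the secreted antagonist Fst, the inhibitory Smads Smad6 and Smad7, and the response genes Id1, Id2, Id3 and Id4. They were taken by name, not by their values, and all 10 were found among the 28765 genes of the table by matching Ensembl identifiers to symbols. Expression was measured by RNA-seq in CD-1 mice at embryonic day 9.5 (E9.5), in the brain and the spine of control and NTD embryos, which made 4 groups of 1 library each. NTD stands for neural tube defects. In the NTD group, labelled folate deficiency (neural tube defects), males and females had been kept on low-folate feed for over 8 weeks, pregnant females were injected with methotrexate (MTX), an inhibitor of folate metabolism, into the abdomen at 1.5 mg/kg on E7.5, and embryos with visible defects were taken. The labels carry the same diet and injection text for the control libraries, and whether control mothers had the feed or an injection is thus unclear. The number of embryos in a library and the line along which brain and spine were cut were not given in the sources used here. With 1 library in each group no difference has a replicate check and no p-value is given.

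BMPs are secreted growth factors that bind paired type I and type II serine/threonine kinase receptors. The type I receptor phosphorylates Smad1, Smad5 and Smad9, which enter the nucleus with Smad4 and switch on target genes. Id genes are the classic direct targets, and Id proteins bind basic helix-loop-helix (bHLH) factors and keep them off DNA. Smad6 and Smad7 are also targets and act back on the pathway as inhibitors. In the closing neural tube BMPs come from the surface ectoderm and the roof plate and set dorsal cell fates, and their level bears on the bending of the neural plate.

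Library totals, recovered from the deposited values, lay between 16272101 and 16911677 reads. Of all genes, 12940 had a mean of at least 1 FPKM (fragments per kilobase of transcript, scaled to library depth) and were compared, a filter that all 10 genes passed. Shares of compared genes are of these 12940. A library's level is given in FPKM. A fold compares the share of a gene's recovered reads in each library's total, with a 95% exact interval that covers counting error only. A log2 ratio is that of (FPKM + 1), which is smaller than the fold for genes of low level, and counts past 2-fold or 1.5-fold are on this scale. The tissue labels were checked on regional genes: 8 forebrain and midbrain markers summed to 84.0 and 76.2 FPKM in control and NTD brain and to 14.2 and 7.95 FPKM in control and NTD spine, with Otx2 and Lhx2 the highest. The NTD brain library stood apart from control brain in trunk genes: 8 trunk Hox genes, led by Hoxb9 and Hoxb8, summed to 0.172 FPKM in control brain, where Hoxb7, Hoxb8, Hoxc9 and Hoxd8 were at 0, to 10.2 FPKM in NTD brain, and to 140 and 146 FPKM in the spine libraries. Heart genes, given with the inhibitory Smads, differed the same way, and 8 erythroid genes, led by Hbb-bh1 and Hbb-y, summed to 4482 and 4820 FPKM in control and NTD brain and to 6987 and 3645 FPKM in control and NTD spine. The brain comparison has no other library to set these aside with, and their part in its results was not tested. Fewer cells of a type and less RNA per cell cannot be told apart in such bulk tissue.

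Levels of the 10 genes formed a high and a low tier in every library. Id3, Id1 and Id2, which encode inhibitors of bHLH factors, were the highest, in that order, at 138, 97.5 and 65.9 FPKM in control brain. The other 7 genes were all below 20 FPKM in every library, and Bmp2 was the lowest except in NTD spine, where Id4 was lower. Among all compared genes only 3.16% had a higher mean level than Id3, whereas 90.2% had a higher mean than Bmp2. Neighbours whose counting intervals overlapped were Bmp7 with Id4, Id4 with Bmp4 and Fst with Smad6 in control brain, and Id1 with Id2, Bmp4 with Bmp7 and Smad7 with Smad6 in NTD brain. In control spine they were Id3 with Id1, Bmp7 with Smad6 and Id4 with Bmp2, and in NTD spine Id1 with Id2, Smad6 with Bmp7 and Bmp2 with Id4. Bmp2 was below 1 FPKM in both brain libraries and passed the filter on its spine levels, and the other 9 were above 1 FPKM in every library.

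**Figure D1:**
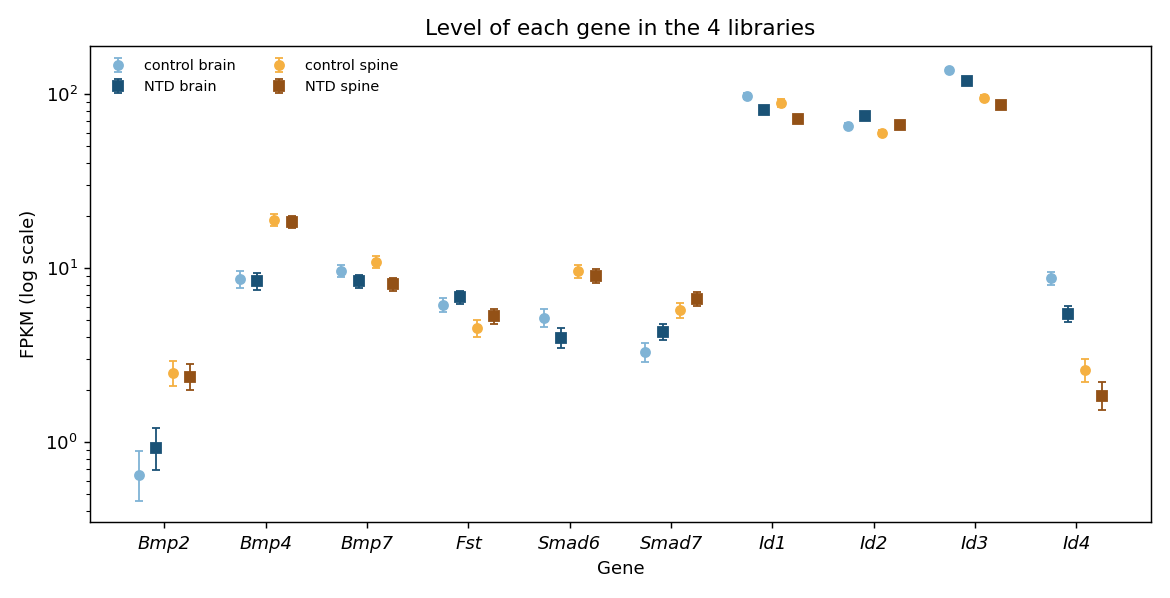
Level of each of the 10 genes in the 4 libraries, in FPKM on a log axis, with 95% exact Poisson intervals from recovered reads as bars (circles, control; squares, NTD; blue, brain; orange and brown, spine). Id1, Id2 and Id3 lie above the other 7 genes in every library; Bmp2, Bmp4, Smad6 and Smad7 are higher in both spine libraries than in both brain libraries, and Id4 is higher in both brain libraries.

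The 4 Id genes are close relatives whose levels here differed widely and not in step, so the sequences at the starts of 3 of them are shown with that of Smad6, another direct target. RefSeq promoter sequences (GRCm38.p6) were matched for 5 of the 10 genes: Id2, Id3, Id4, Smad6 and Bmp4. Smad7 was left out of the matching, and entries were not matched for Id1, Bmp2, Bmp7 and Fst. Each line gives 250 bases before and 10 bases after the RefSeq start, 5′ to 3′ on the gene's strand. Capitals mark 3 motifs known to be bound by Smad proteins, searched on both strands. The first is GGCGCC. The next, GGAGCC, reads GGCTCC on the other strand. The last is the palindrome GTCTAGAC. The windows are Id2 at chr12:25096083-25096342, minus strand, Id3 at chr4:136143572-136143831, plus strand, Id4 at chr13:48260866-48261125, plus strand and Smad6 at chr9:64022050-64022309, minus strand.
Id2: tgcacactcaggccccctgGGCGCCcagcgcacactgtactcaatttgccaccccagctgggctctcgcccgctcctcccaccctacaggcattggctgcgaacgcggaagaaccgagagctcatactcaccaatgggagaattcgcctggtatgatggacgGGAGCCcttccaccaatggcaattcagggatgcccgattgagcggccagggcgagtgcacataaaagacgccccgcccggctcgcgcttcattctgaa
Id3: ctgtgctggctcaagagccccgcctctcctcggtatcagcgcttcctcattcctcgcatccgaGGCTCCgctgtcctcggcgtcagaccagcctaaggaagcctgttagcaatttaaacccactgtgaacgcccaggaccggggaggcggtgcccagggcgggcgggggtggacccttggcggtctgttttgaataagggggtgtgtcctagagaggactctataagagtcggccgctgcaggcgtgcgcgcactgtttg
Id4: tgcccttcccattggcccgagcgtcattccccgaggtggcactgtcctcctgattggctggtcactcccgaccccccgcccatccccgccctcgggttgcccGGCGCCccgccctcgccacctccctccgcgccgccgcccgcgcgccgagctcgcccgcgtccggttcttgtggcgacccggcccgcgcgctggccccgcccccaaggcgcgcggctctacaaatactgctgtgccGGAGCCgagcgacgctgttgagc
Smad6: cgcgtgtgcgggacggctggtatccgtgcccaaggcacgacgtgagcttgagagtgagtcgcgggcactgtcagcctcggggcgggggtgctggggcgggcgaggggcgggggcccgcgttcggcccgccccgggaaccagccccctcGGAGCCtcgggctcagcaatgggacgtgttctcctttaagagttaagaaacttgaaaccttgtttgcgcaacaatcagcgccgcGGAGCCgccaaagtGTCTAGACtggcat

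Id2 and Id4 each held GGCGCC once, beginning 231 and 148 bases before the start, and Id3, Smad6 and Bmp4 did not. Of 32851 RefSeq promoter windows of the same length, 9.96% held that motif. GGAGCC was found once in each of Id2, Id3, Id4 and Bmp4 and 2 times in Smad6, against 26.8% of all windows. GTCTAGAC lay across the start of Smad6, with 4 bases on either side, a motif held by 0.177% of all windows. The 5 windows were rich in G and C, from 61.5% in Id2 to 75.0% in Id4, where the median of all windows was 52.3%. The E-box CANNTG, the site of bHLH factors, was found 1 time in Id2, 3 times in Bmp4 and not in the windows of Id3, Id4 and Smad6, against 67.7% of all windows. None of the 3 marked motifs overlaps another in these windows. GGAGCC was in the windows of the abundant Id2 and Id3, in those of Id4 and Smad6, which were below 10 FPKM in every library, and in that of Bmp4, at up to 18.9 FPKM. Whether the motifs bear on these levels was not tested.

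The first comparison asks how the 10 genes stood in NTD tissue. None was 2-fold higher or lower in NTD brain, where 1.58% of the compared genes were, and none in NTD spine, where 1.33% were. Id4 alone passed 1.5-fold, in brain: it was lower, as were 2.56% of the compared genes, and 4.58% passed in either direction. The log2 ratio of Id4 there, -0.587, was close to the cut. It fell short of 1.5-fold on rescaling by the median ratio (-0.55) and with a pseudocount of 5 (-0.39). It stayed past 1.5-fold with a pseudocount of 0.1 (-0.66), on scaling to the same FPKM sum (-0.62) and when adjusted for GC content and length (-0.66). In spine none of the 10 passed 1.5-fold, where 4.38% of the compared genes did, and the difference between tissues was not tested. The median log2 ratio of the 10 genes was -0.10 in brain and -0.06 in spine, beside -0.03 and -0.04 over the compared genes. The 10 genes did not move as a block: 4 were higher and 6 lower in NTD brain, and 3 higher and 7 lower in NTD spine, where 56.4% and 58.0% of the compared genes were lower.

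Among the ligands, Bmp7 was lower in both NTD tissues and Bmp4 stood nearly level. Bmp4 (ENSMUSG00000021835, chromosome 14, 46383520 to 46390669), a dorsalizing ligand of the neural tube, was at 8.63 and 8.43 FPKM in control and NTD brain and 18.9 and 18.4 FPKM in control and NTD spine. It was 1.02-fold lower in NTD brain (interval 0.874 to 1.20) and 1.02-fold lower in NTD spine (0.921 to 1.14), so a difference was not detectable at this depth. Bmp7 (ENSMUSG00000008999, chromosome 2, 172868012 to 172940321), which pairs with Bmp2 or Bmp4 in heterodimers, was at 9.61 and 8.38 FPKM in control and NTD brain and at 10.9 and 8.08 FPKM in control and NTD spine. Both NTD libraries lay below both controls: the fold was 1.15 in brain (1.02 to 1.29) and 1.34 in spine (1.20 to 1.51). Bmp2 (ENSMUSG00000027358, chromosome 2, 133552159 to 133562885), the near relative of Bmp4, was at 0.649 and 0.922 FPKM in control and NTD brain, which rests on 39 and 54 reads, and at 2.49 and 2.37 FPKM in the spine libraries. Its folds were 1.42 higher in NTD brain (0.924 to 2.20) and 1.05 lower in NTD spine (0.826 to 1.33), both with equality inside the interval. Summed over these ligands the level was 18.9 FPKM in control and 17.7 in NTD brain and 32.2 in control and 28.9 in NTD spine. Bmp4 made up 45.7% and 47.5% of that sum in control and NTD brain and 58.6% and 63.8% in control and NTD spine.

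Fst (ENSMUSG00000021765, chromosome 13, 114452290 to 114458951) encodes follistatin, which binds activins and some BMPs outside the cell. It was at 6.12 and 6.81 FPKM in control and NTD brain and 4.50 and 5.28 FPKM in control and NTD spine. The NTD library was the higher in each tissue, by 1.11-fold in brain (0.981 to 1.26) and 1.17-fold in spine (1.01 to 1.36). Of the activin-type ligands that follistatin binds, Inhba and Inhbb, the activin subunits, were under 0.1 FPKM in every library. Gdf11, a related ligand of the trunk and nervous system, was lower in both NTD tissues, at 14.8 and 10.3 FPKM in control and NTD brain (1.44-fold, 1.31 to 1.59) and 16.4 and 13.6 FPKM in control and NTD spine (1.21-fold, 1.10 to 1.32). Inha, which encodes the inhibin alpha subunit, was 1.30-fold lower in NTD brain (0.954 to 1.79) and 1.50-fold lower in NTD spine (1.10 to 2.04).

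The inhibitory Smads went opposite ways in brain. Smad6 (ENSMUSG00000036867, chromosome 9, 63953076 to 64022059), which acts mainly against BMP signals, was at 5.17 and 3.98 FPKM in control and NTD brain and 9.57 and 9.02 FPKM in control and NTD spine. It was 1.30-fold lower in NTD brain (1.08 to 1.56) and 1.06-fold lower in NTD spine (0.934 to 1.21). Smad7 (ENSMUSG00000025880, chromosome 18, 75367529 to 75395935), which acts against BMP and TGF-beta signals, was at 3.30 and 4.30 FPKM in control and NTD brain and 5.71 and 6.65 FPKM in control and NTD spine. Both NTD libraries were the higher of their pair, by 1.30-fold in brain (1.10 to 1.54) and 1.16-fold in spine (1.02 to 1.33). Smad6 made up 61.0% of the summed level of this pair in control brain and 48.1% in NTD brain, and 62.6% and 57.6% in control and NTD spine. Both genes are also expressed in endothelium and heart. The 10 endothelial markers, led by Cdh5 and Kdr and all above 0, summed to 70.8 and 66.8 FPKM in control and NTD brain and 83.2 and 83.9 FPKM in control and NTD spine, and the 10 heart markers, led by Actc1 and Myl7 and all above 0, to 51.1 and 212 FPKM in brain and 756 and 503 FPKM in spine. The part of these cells in the Smad6 and Smad7 ratios was not tested.

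Before adjustment for GC content and length the Id genes split, with Id2 higher and Id1, Id3 and Id4 lower in NTD tissue. With the adjustment the log2 ratio of Id3 in spine was 0.02, no longer below 0. Id1 (ENSMUSG00000042745, chromosome 2, 152736251 to 152737410) was at 97.5 and 80.7 FPKM in control and NTD brain and 89.0 and 72.3 FPKM in control and NTD spine. It was 1.21-fold lower in NTD brain (1.13 to 1.29) and 1.23-fold lower in NTD spine (1.15 to 1.32), with both NTD libraries below both controls. Id3 (ENSMUSG00000007872, chromosome 4, 136143497 to 136145755), which is often expressed together with Id1, was at 138 and 118 FPKM in control and NTD brain and 95.4 and 86.6 FPKM in control and NTD spine. Its folds were 1.16 lower in brain (1.11 to 1.22) and 1.10 lower in spine (1.04 to 1.16). Id2 (ENSMUSG00000020644, chromosome 12, 25093799 to 25097140), which in neural cells holds back differentiation, was at 65.9 and 74.6 FPKM in control and NTD brain and 59.9 and 66.4 FPKM in control and NTD spine. It was higher in the NTD library of each tissue, by 1.13-fold in brain (1.07 to 1.19) and 1.11-fold in spine (1.05 to 1.17). With these opposite directions the share of Id2 in the summed Id level was 21.3% in control and 26.7% in NTD brain and 24.3% in control and 29.2% in NTD spine, while the sum itself was 310 and 279 FPKM in brain and 247 and 227 FPKM in spine.

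Id4 had the largest fold by reads among the lower genes in both NTD tissues. Id4 (ENSMUSG00000021379, chromosome 13, 48261228 to 48266026), an Id gene of neural progenitors, was at 8.73 and 5.47 FPKM in control and NTD brain and 2.59 and 1.85 FPKM in control and NTD spine. It was 1.59-fold lower in NTD brain (1.39 to 1.83), where 2.50% of compared genes had a lower log2 ratio, and 1.40-fold lower in NTD spine (1.10 to 1.79), where 10.3% did. Neural markers were lower with it: 7 progenitor markers, led by Nes and Sox2 and all above 0, summed to 224 and 187 FPKM in control and NTD brain and 144 and 125 FPKM in control and NTD spine, and 8 early neuron markers, led by Tubb3 and Nefm and all above 0, to 151 and 95.2 FPKM in brain and 83.9 and 39.5 FPKM in spine. Id4 was also lower in spine than in brain, and the NTD brain library held more of the trunk Hox genes than control brain. The part of these in the Id4 difference was not tested.

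Counting intervals excluded equality in NTD brain for 2 higher genes (Id2 and Smad7) and 5 lower genes (Bmp7, Id1, Id3, Id4 and Smad6), and in NTD spine for 3 higher (Id2, Smad7 and Fst) and 4 lower (Bmp7, Id1, Id3 and Id4). Of the compared genes with whole reads, 16.1% were higher and 25.8% lower by that rule in brain and 17.2% and 26.6% in spine. The rule passes small differences in genes with many reads, and it holds no variation between embryos. In 9 of the 10 genes the log2 ratio was on the same side of 0 in brain and spine, as it was in 67.9% of the compared genes. These comparisons share no library, but whether brain and spine of a group came from the same embryos was not given. The exception was Bmp2. GC content can bias library amplification, and the transcripts of the 10 genes range from 42.6% G and C in Id4 to 60.8% in Smad6. After subtracting the median of genes of like GC content and length, the log2 ratios of Id4 were -0.66 in brain and -0.37 in spine, those of Id1 -0.19 and -0.14, those of Id2 0.08 and 0.16, and those of Smad7 0.45 and 0.32. Id3 went from -0.14 to 0.02 in spine, and Smad6 from -0.31 to -0.11 in brain and from -0.08 to 0.12 in spine. Bmp4, at -0.03 in both tissues, stood at -0.01 in brain and 0.12 in spine after adjustment, and Bmp7 was at -0.05 and -0.27. With this adjustment 7 of the 10 genes were on the same side in both tissues, and 65.2% of the compared genes.

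**Figure D2:**
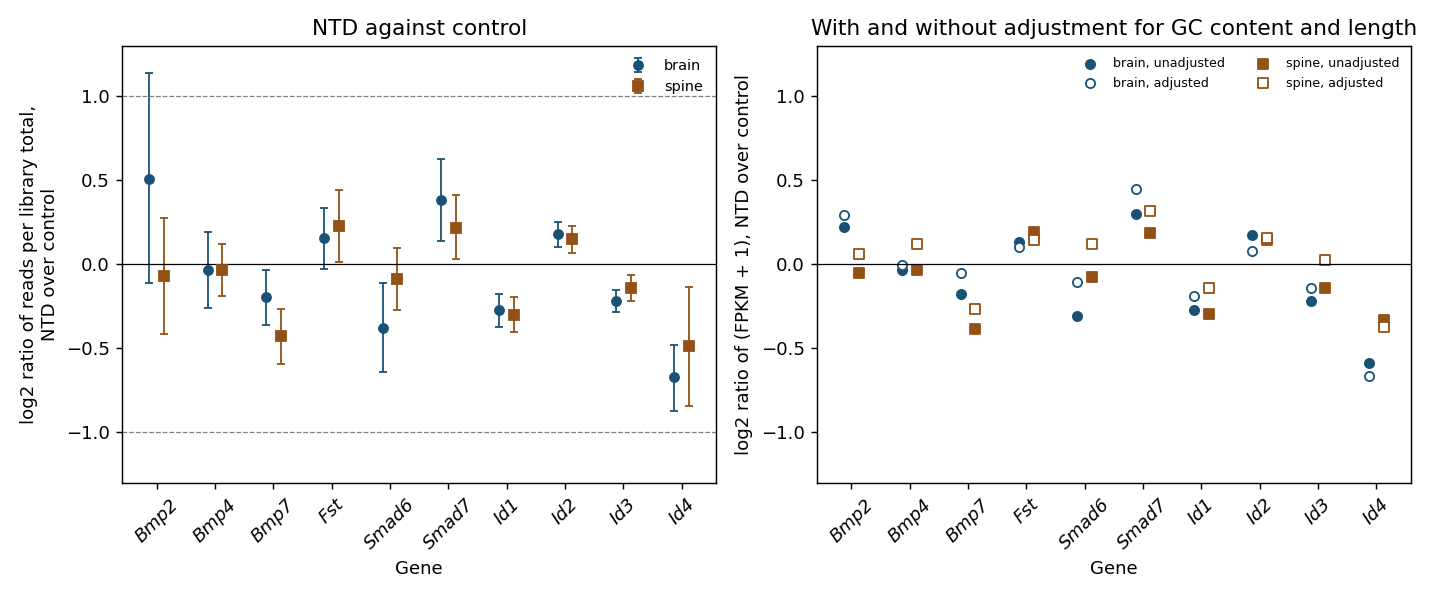
NTD against control in brain (blue circles) and spine (brown squares). Left, log2 ratio of the shares of recovered reads in the library totals, bars giving 95% counting intervals and dashed lines 2-fold; right, log2 ratio of (FPKM + 1) before (filled) and after (open) adjustment for GC content and length. All 10 genes lie inside 2-fold, Id4 is the lowest in both tissues by reads, and Bmp2, Bmp4, Id3 and Smad6 in spine cross 0 with the adjustment.

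The second comparison sets brain against spine. Past 2-fold, 1 of the 10 was higher and 2 were lower in control brain than in spine, where 0.981% and 2.38% of the compared genes were. Id4 was 3.37-fold higher in control brain (2.83 to 4.04), and Bmp2 and Bmp4 were 3.84-fold (2.68 to 5.62) and 2.19-fold lower (1.92 to 2.50). Of these, Bmp2 passed the filter only on its spine levels. With a filter of 5 FPKM, which Bmp2 and Id4 do not reach, 0 genes were higher and 1, Bmp4, was lower past 2-fold. At 1.5-fold Smad6 and Smad7 were also lower, which made 4 genes lower, where 5.27% of the compared genes were, and 1 higher, where 2.91% were. Smad6 was 1.85-fold lower in control brain (1.60 to 2.15) and Smad7 1.73-fold lower (1.48 to 2.03). Among the abundant Id genes Id3 was 1.44-fold higher in control brain (1.38 to 1.52), while Id1 and Id2 were both 1.10-fold higher (1.03 to 1.17 and 1.04 to 1.16). Fst was 1.36-fold higher (1.18 to 1.57) and Bmp7 1.13-fold lower (1.01 to 1.26). So the ligands Bmp2 and Bmp4 and the inhibitory Smads were higher in spine, and the Id genes and Fst were higher in brain.

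The NTD libraries, which are not shared with the control comparison, gave much the same order. Id4 was 2.96-fold higher in NTD brain than in NTD spine (2.40 to 3.69), and at least 2-fold higher on the log scale, as were 1.02% of the compared genes. Bmp4 was 2.19-fold lower (1.91 to 2.51) and Smad6 2.27-fold lower (1.92 to 2.68), and both passed 2-fold, as did 2.13% of the compared genes. Bmp2 was 2.57-fold lower by reads (1.87 to 3.59), but its log2 ratio was -0.81 because its level is low. Smad7 was 1.55-fold lower (1.34 to 1.79), with a log2 ratio of -0.53. Id3 was 1.37-fold higher (1.30 to 1.44) and Fst 1.29-fold higher (1.13 to 1.48). Id1 and Id2 were both 1.12-fold higher (1.04 to 1.20 and 1.07 to 1.18). With libraries scaled to the same FPKM sum, log2 ratios fell from 0.16 to 0.05 for Id1, from 0.17 to 0.06 for Id2 and from 0.45 to 0.34 for Id3. In 9 of the 10 genes the side was the same in control and NTD libraries, beside 67.7% of the compared genes, and the exception, Bmp7, was 1.04-fold higher in NTD brain than in NTD spine (0.920 to 1.17), or lower, with a log2 ratio of -0.05, when libraries were scaled to the same FPKM sum. Past 2-fold in both pairs were Bmp4, lower in brain as 1.53% of the compared genes were, and Id4, higher as 0.595% were. The spine libraries held more of some other tissues. The 8 limb and lateral plate markers, led by Hand1 and Prrx1 and all above 0, summed to 21.9 and 24.2 FPKM in control and NTD brain and 90.4 and 91.1 FPKM in control and NTD spine. Of these, 7 of 8 were higher in spine in the control pair and 8 of 8 in the NTD pair. The 9 somite markers, led by Meox1 and Tcf15 and all above 0, summed to 16.0 and 27.2 against 128 and 154 FPKM, with 9 of 9 higher in spine in both pairs. Surface ectoderm markers were split: the 8 genes, all above 0, summed to 108 and 123 FPKM in brain against 182 and 173 FPKM in spine through Krt18 and Krt8, while 3 of 8 were higher in control brain than in spine and 4 of 8 in the NTD pair. The 6 yolk sac and endoderm markers, led by Afp and Apoa1, summed to 0.321 FPKM in control brain, with Afp, Apoa2 and Ttr at 0, to 0.375 FPKM in NTD brain, with Apoa1 and Apoa2 at 0, and to 119 and 35.9 FPKM in control and NTD spine. The 7 neural crest markers, led by Ets1 and Tfap2b and all above 0, differed less, at 38.8 and 42.9 FPKM in brain and 33.7 and 36.0 FPKM in spine. The part of these tissues in the differences was not tested.

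**Figure D3:**
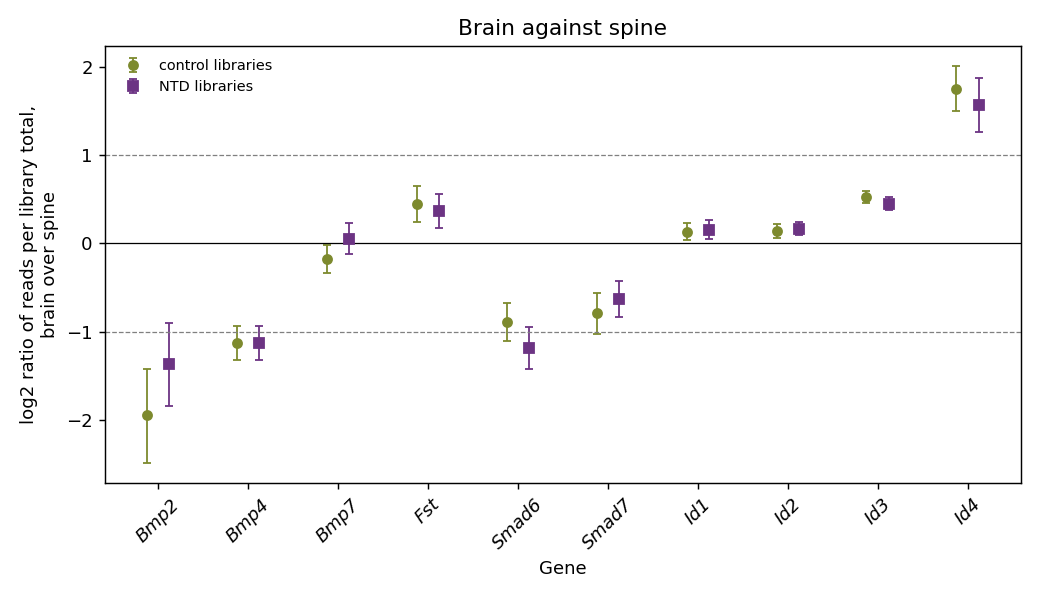
Log2 ratio of the shares of recovered reads in the library totals, brain over spine, in the control (green circles) and NTD libraries (purple squares), with 95% counting intervals as bars and dashed lines at 2-fold. Bmp2, Bmp4, Smad6 and Smad7 lie below 0 and Id3, Id4 and Fst above 0 in both pairs, with Id4 the highest.

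For the rest of the pathway, lists of genes by role were described in the same way, and the lists were not tested against each other. Of the compared genes, 4.58% were past 1.5-fold in NTD brain and 4.38% in NTD spine. All 7 BMP receptor genes passed the filter and none reached 1.5-fold in either tissue, with medians of -0.07 in brain and 0.06 in spine. Bmpr1a, a type I receptor and the highest of the 7 in every library, was at 22.2 and 22.9 FPKM in control and NTD brain and at 20.5 and 22.1 FPKM in spine. Bmpr1b, a type I receptor of the dorsal neural tube, was 1.46-fold lower in NTD brain (1.23 to 1.74) and 1.31-fold lower in NTD spine (1.06 to 1.62), and Acvr1, another type I receptor, was 1.17-fold higher in brain (1.01 to 1.34) and 1.25-fold higher in spine (1.09 to 1.43). Acvrl1, a type I receptor of endothelium, was 1.34-fold lower in NTD brain (1.12 to 1.61), and Acvr2b, a type II receptor, 1.19-fold lower (1.08 to 1.32). The signal-carrying Smads were also inside 1.5-fold: Smad5 was 1.24-fold lower in NTD brain (1.17 to 1.32) and 1.10-fold lower in NTD spine (1.04 to 1.16), and Smad1 was 1.14-fold lower in NTD brain (1.02 to 1.27). In NTD spine Smad5 was the only 1 of the 4 with a log2 ratio below 0, so Smad1 was on the higher side there. By counting interval none of the 4 was higher in NTD spine. Smad4 stood at 33.4 and 33.5 FPKM in brain and 34.8 and 36.5 FPKM in spine, and Smad9 was low, from 0.661 FPKM (control brain) to 1.38 FPKM (NTD spine).

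Of 11 further BMP ligands only Bmp5, Bmp6, Gdf6 and Gdf7 passed the filter, and none reached 1.5-fold on the log scale in either tissue. Gdf7, a roof plate ligand, was at 2.66 and 1.49 FPKM in control and NTD brain, 1.78-fold lower by reads (1.16 to 2.77) with a log2 ratio of -0.55, and at 1.43 and 1.44 FPKM in spine. Bmp6 was 1.47-fold lower in NTD brain (1.15 to 1.88) and 1.17-fold lower in NTD spine (0.848 to 1.62). Bmp5 was 1.28-fold higher in NTD spine (1.03 to 1.59), at 2.32 and 2.96 FPKM, and Gdf6, a ligand of the dorsal ectoderm, 1.35-fold lower (1.06 to 1.73), at 2.75 and 2.03 FPKM. In NTD brain both Bmp5 and Gdf6 had log2 ratios above 0, the side opposite to spine for Gdf6. By counting interval neither was higher in NTD brain. Among 12 secreted antagonists and modulators past the filter of 21 listed, 1 was past 1.5-fold, lower in NTD brain as 2.56% of the compared genes were. This was Nog, which encodes the BMP antagonist noggin, at 4.71 and 2.51 FPKM in control and NTD brain. It was 1.88-fold lower there (1.40 to 2.54) and 1.20-fold lower in NTD spine (0.890 to 1.62), where it stood at 3.66 and 3.06 FPKM. Grem1, the antagonist gremlin, was 1.40-fold higher in NTD spine (1.17 to 1.68), at 3.05 and 4.27 FPKM. Sost and Nbl1, other secreted antagonists, were 1.51-fold (1.09 to 2.12) and 1.50-fold lower (1.05 to 2.16) in NTD spine by reads.

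Membrane and intracellular modulators were mostly below 0, with 10 of 11 in NTD brain and 8 of 11 in NTD spine, beside 56.4% and 58.0% of the compared genes, none past 1.5-fold, and medians of -0.15 and -0.16. After adjustment for GC content and length these medians were -0.08 and -0.07. Rgmb, a BMP co-receptor, was 1.42-fold lower in NTD brain (1.26 to 1.59) and 1.25-fold lower in NTD spine (1.11 to 1.40), and Eng, an endothelial co-receptor, 1.27-fold (1.13 to 1.42) and 1.24-fold lower (1.12 to 1.38). Smurf1, a ubiquitin ligase that removes Smads, and Skil, a Smad corepressor, were both 1.23-fold lower in NTD brain (1.11 to 1.35 and 1.11 to 1.37). Bambi, a decoy receptor that is itself induced by BMP signals, was the member higher in NTD brain, at 4.81 and 5.44 FPKM. By counting interval no gene of this list was higher in NTD brain. Bambi stood at 9.52 and 10.7 FPKM in spine, higher than in brain, as Bmp4, Smad6 and Smad7 were.

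Other response genes had medians of -0.12 in NTD brain and -0.15 in NTD spine, and -0.01 and -0.04 after the same adjustment. Of 13 genes, 2 were past 1.5-fold, both lower in brain, as were 2.56% of the compared genes. They were Nog, already counted among the secreted antagonists, and Msx1, a homeobox gene of the dorsal midline. Msx1 was at 21.0 and 13.2 FPKM in control and NTD brain, 1.59-fold lower (1.45 to 1.76), and at 21.1 and 17.4 FPKM in spine, 1.22-fold lower (1.11 to 1.33). Tbx2, a T-box repressor downstream of BMP signals, was 1.27-fold (1.11 to 1.47) and 1.43-fold lower (1.23 to 1.66). Dlx5, a homeobox gene of the anterior neural ridge and branchial arches, stood 1.13-fold higher in the NTD brain library (0.945 to 1.35) and 1.35-fold lower in NTD spine (1.04 to 1.76), a difference between tissues that was not tested.

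Of 12 roof plate and dorsal interneuron genes, among them Gdf7 and Msx1, all 12 were below 0 in NTD brain and 10 in NTD spine, beside 56.4% and 58.0% of the compared genes, with medians of -0.34 and -0.30. Neural markers were lower beside them: early neuron markers in 8 of 8 in both tissues, with medians of -0.60 and -0.75, and progenitor markers in 7 of 7 in brain and 6 of 7 in spine, with medians of -0.22 and -0.14. Trunk Hox genes were higher in NTD brain in 8 of 8. The part of these in the dorsal genes' ratios was not tested. Adjusted for GC content and length the medians were -0.30 and -0.15. The 1 gene past 2-fold in each tissue was Atoh1, which was lower, as were 0.781% of the compared genes in brain and 0.68% in spine, and which passed the filter on its control levels alone. Atoh1, a proneural gene of the most dorsal progenitors, was at 2.54 and 0.544 FPKM in control and NTD brain and 1.48 and 0.114 FPKM in control and NTD spine, 4.66-fold (2.82 to 8.10) and 13.0-fold lower (4.78 to 49.6). Olig3, a bHLH gene of dorsal progenitors, was 1.62-fold (1.34 to 1.96) and 1.37-fold lower (1.15 to 1.63), and Wnt3a, a signal of the dorsal midline, 1.65-fold (1.37 to 1.99) and 1.05-fold lower (0.807 to 1.36). The bHLH partners that Id proteins bind were nearly level: Tcf3, at 108 and 93.7 FPKM in control and NTD brain, was 1.15-fold lower there (1.11 to 1.19) and 1.07-fold lower in spine (1.04 to 1.11). Tcf12 was higher in both, by 1.05-fold in brain (1.01 to 1.09) and 1.12-fold in spine (1.08 to 1.16), and the intervals of Tcf4, 1.06-fold lower in NTD brain (0.987 to 1.13) and 1.04-fold higher in NTD spine (0.974 to 1.11), held equality.

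**Figure D4:**
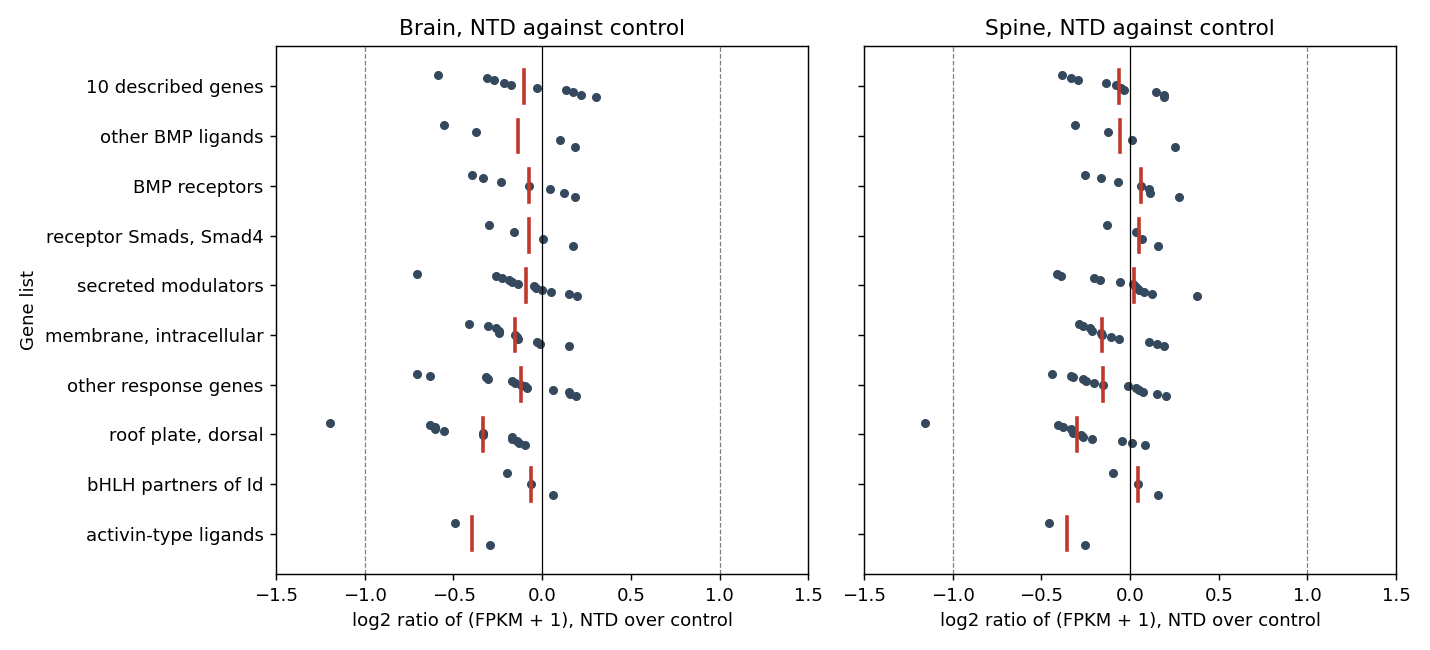
Log2 ratio of (FPKM + 1), NTD over control, for each gene past the filter (points) in the 10 described genes and 9 lists of the pathway, in brain (left) and spine (right). Red bars are list medians and dashed lines mark 2-fold; 1 gene, Atoh1 of the roof plate list, lies past 2-fold in each tissue.

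Candidates for a like profile were the 7221 protein-coding genes whose mean was 5 FPKM or more. Those nearest to a described gene over the 4 libraries were found by the Euclidean distance between centred log2 values of (FPKM + 1), for the 4 genes whose highest and lowest values were at least 1 apart. Nearest to Id4 were Fabp7 (distance 0.176), Pou3f4 (0.190) and Neurod1 (0.269), a fatty acid binding protein of radial glia and a POU and a bHLH factor of the nervous system. Fabp7 was at 36.2 and 27.0 FPKM in control and NTD brain and 14.3 and 9.73 FPKM in control and NTD spine. Nearest to Bmp4 were Foxc2 (0.0644), a forkhead factor of mesoderm, Ets2 (0.0839) and Nid2 (0.0989). Smad6 was nearest to Cdh3 (0.0748), Etv4 (0.0761) and Pdgfra (0.0903), and Bmp2 to Ccdc80 (0.0613), Plagl1 (0.123) and Ets2 (0.144). Each of these likenesses rests on 4 values a gene.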

How the data were processed

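The authors deposited 1 table of FPKM with 28765 genes and 4 columns, all mapped to a group by sample title. The submitters' processing notes name HISAT2 2.0.1 and mm10. For the counting program, annotation and strand setting, nothing is given in the sources used here. Identifiers were matched to GENCODE M21 (GRCm38), 28698 of them. Multiplied by union exon length, FPKM became whole multiples of 1 step per library, which gave its total and whole reads (tolerance 0.01 reads) for 28298 genes, 98.6% of those matched. Log2 ratios used a pseudocount of 1, for genes whose mean reached 1 FPKM. Fold intervals are exact Clopper-Pearson conditional binomial intervals at 95%. GC content was taken from the longest transcript, and the adjustment used 10 by 10 classes of GC content and length. Steps were tested on simulated data. Antisense or overlapping gene models cross Bmp4 (Gm15217, Gm15222), Id4 (A330033J07Rik, Gm49291) and Fst (Gm47040). Gm15222, at up to 2.68 FPKM, shares no exon base with Bmp4. The others share exon bases and stood at or under 0.286 FPKM, and without a strand setting reads over those bases cannot be told apart. The pathway gene Hjv was not matched.

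The 10 genes and all lists were chosen with earlier results of these data known. All 10 were named. In pathway lists up to 4 genes with the largest NTD log2 ratio in either tissue were named, and in marker lists the 2 genes of highest mean and those at 0; Bmpr1a, Bambi, Inhba and Inhbb were named after their values were seen. Alternatives were pseudocounts of 0.1 and 5, no filter or one of 5 FPKM, 2 rescalings, protein-coding genes only, the GC and length adjustment, ratios of recovered reads, and thresholds of 1.5-fold and 4-fold. No p-value was computed. Calculations used Python 3.11.15, pandas 2.3.3 and scipy 1.17.1.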

Additional observations from a re-analysis of the deposited data

How the results depend on the processing

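Within a tissue no paired analysis was possible, because each group has 1 library and the groups share only 1 replicate number. For the same reason no replicate could be left out. A fit over both tissues with tissue as a block would leave 1 residual degree of freedom and was not run. The count of 0 genes past 2-fold in both NTD comparisons stayed at 0 under every alternative except the 1.5-fold threshold in brain, which gave 1. Between control brain and control spine the count of 3 became 0 with a pseudocount of 5, 1 with a filter of 5 FPKM (Bmp2, Id4 and Smad7 have a lower mean), 5 at 1.5-fold and 0 at 4-fold, and between NTD brain and NTD spine the count of 3 became 0 with a pseudocount of 5 and 0 at 4-fold, 4 with a pseudocount of 0.1 and at 1.5-fold, and 2 with a filter of 5 FPKM and with the GC and length adjustment. Without a filter, 50.5% rather than 67.9% of genes were on the same side in both NTD comparisons. A ratio of exactly 0, as in genes without reads, counts there as not on the same side. On rescaling to the same FPKM sum 8 of the 10 genes were on the same side, with Bmp2 and Bmp4 the exceptions, beside 64.3% of the compared genes. Medians of the 10 genes ranged from -0.18 to -0.03 in NTD brain and from -0.08 to 0.09 in NTD spine, positive only with the GC and length adjustment in spine. Each single-gene log2 ratio was set against its main value. Over all alternatives 26 shifted by more than the distance from the middle to the end of the counting interval, and 322 did not. The 322 include the filter settings and the protein-coding setting, which cannot change the ratio of a single gene, so they overstate how stable the ratios were. A value so counted could still lie inside the interval, as did Bmp2 by recovered reads in control brain against control spine (-1.94). None that was past 2-fold changed sign. Bmp4, near 0, turned to 0.01 in NTD brain on rescaling by the median ratio and to 0.02 in NTD spine on either rescaling, and in spine the adjustment also turned Bmp2 to 0.06, Bmp4 and Smad6 to 0.12 and Id3 to 0.02. Bmp2 rests on 39 reads in control brain, which sets its precision.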
